A study of Mus musculus with 18 samples.

Results

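The genes described here are 6 receptors of the tumour necrosis factor (TNF) superfamily and the adaptor Traf1, which regulatory T (Treg) cells are known to express. They are Tnfrsf4 (OX40), Tnfrsf9 (4-1BB), Tnfrsf18 (GITR), Tnfrsf1b (TNFR2), Tnfrsf25 (DR3), Cd27 and Traf1, 7 of the 18193 genes measured. They were listed by name, and the chip annotation gave them 11 probe sets. Each gene was represented by its most variable probe set over all 18 arrays, and the other 4 were compared with it. RNA of freshly isolated CD4 T cells, sorted from lymph nodes and spleen of B6;129 mice, was measured on Affymetrix arrays. The mice were heterozygous at Foxp3, with 1 allele tagged by hCD2, wild type or mutant, and a wild-type allele tagged by GFP. Treg cells that were positive for hCD2 and negative for GFP expressed Foxp3 A384T, I363V or R397W (3 arrays each), or wild-type Foxp3 (WT hCD2, 2 arrays). GFP-positive, hCD2-negative wild-type Treg cells came from A384T mice (3 arrays) and from mice whose alleles were both wild type (WT GFP, 2 arrays). CD4 T cells of those fully wild-type mice that were negative for both reporters are called Tconv (2 arrays). All groups therefore came from mice that carry both reporters, and each mutant Treg population shared its host with wild-type Treg cells. The ages of the mice and the number of mice per array are not given in the sources used here.

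Receptors of this family are membrane proteins that bind trimeric ligands. Apart from those with a death domain, which bind adaptors such as TRADD, they recruit TRAF proteins to their cytoplasmic tails, and these lead to the NF-kB and MAP kinase pathways. OX40, 4-1BB, GITR, TNFR2 and CD27 are co-stimulatory receptors of T cells that recruit TRAFs, while DR3 carries a death domain. Traf1 is a TRAF protein that lacks the RING domain of its relatives, binds several of these receptors and is itself a known NF-kB target. Foxp3, the X-linked transcription factor of Treg cells, has a forkhead domain, and the changes A384T, I363V and R397W lie within it.

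All 7 genes had at least 1 promoter window in RefSeq (build GRCm38.p6), from 250 bases before to 50 bases after an annotated start, and 9 windows were searched on both strands. The forkhead core GTAAACA occurred in 0 of the 9 windows and in 3.65% of all 32851 windows. The kappaB-like letters GGG and CC with any 5 bases between them occurred in 5 of 9 windows and in 50.8% of all windows, and the AP-1 letters TGANTCA in 1 of 9 and in 7.81% of all. A match is only a match of letters, and its absence concerns only this window. Below are 3 windows, read along the strand of the gene, with matched letters in capitals. The window at the downstream annotated start of Tnfrsf9 (chr4:150927749-150928048, plus strand) is shown because it alone held both kappaB-like and AP-1 letters. Its 2 kappaB-like matches overlap each other, and its AP-1 match begins at base -15. The windows of Tnfrsf4 (chr4:156013445-156013744, plus strand) and Tnfrsf18 (chr4:156026072-156026371, plus strand) are shown for their likeness. These receptors had the highest Pearson correlation over the arrays among the 7 genes (0.97), and they lie on chromosome 4 with 1 annotated gene between them. Neither window held any of the searched letters.
Tnfrsf9: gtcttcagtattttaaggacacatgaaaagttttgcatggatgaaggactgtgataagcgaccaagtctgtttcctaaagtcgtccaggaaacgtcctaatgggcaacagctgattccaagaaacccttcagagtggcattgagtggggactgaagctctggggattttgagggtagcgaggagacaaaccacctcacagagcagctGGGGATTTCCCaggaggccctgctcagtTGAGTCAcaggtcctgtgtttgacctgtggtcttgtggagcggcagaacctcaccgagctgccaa
Tnfrsf4: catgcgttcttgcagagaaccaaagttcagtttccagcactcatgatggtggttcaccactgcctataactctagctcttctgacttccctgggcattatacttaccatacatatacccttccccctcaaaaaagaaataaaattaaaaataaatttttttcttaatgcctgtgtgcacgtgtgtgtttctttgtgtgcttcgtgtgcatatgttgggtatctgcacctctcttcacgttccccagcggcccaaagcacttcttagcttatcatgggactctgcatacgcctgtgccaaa
Tnfrsf18: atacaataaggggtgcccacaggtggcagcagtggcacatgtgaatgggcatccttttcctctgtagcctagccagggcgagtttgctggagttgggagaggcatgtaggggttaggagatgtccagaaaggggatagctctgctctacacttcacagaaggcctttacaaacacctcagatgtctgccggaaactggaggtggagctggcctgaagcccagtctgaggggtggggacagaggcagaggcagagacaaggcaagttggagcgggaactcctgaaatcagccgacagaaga

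Values are on the log2 scale relative to the Tconv mean, because every probe set was deposited centred on that mean. They compare groups within a gene and do not rank genes by level. Fold changes and adjusted p come from a limma fit over all genes, and a gene was called at an adjusted p under 0.05. The labels do not say that arrays of a group were separate animals, so p-values measure the spread between these samples only, and the number of arrays limits the precision. Foxp3 averaged 7.34 ± 0.17 in A384T, 6.86 ± 0.31 in I363V and 6.64 ± 0.32 in R397W cells, 7.57 ± 0.04 in WT GFP cells of A384T mice, 7.20 ± 0.19 in WT hCD2 and 7.27 ± 0.22 in WT GFP cells, against 0 ± 0.09 in Tconv cells (SD, n = 3, 3, 3, 3, 2, 2 and 2). Every Treg array lay far above both Tconv arrays in Foxp3. The median of 5 Treg identity genes lay between 4.19 and 4.64 in A384T arrays, 3.74 and 4.35 in I363V arrays, 3.62 and 3.98 in R397W arrays, and 4.76 and 4.83 in WT hCD2 arrays. In bulk samples, fewer cells of a type and less RNA per cell cannot be told apart. The array R397W 2 stood apart, with all 7 genes below the mean of its group by 0.10 to 0.81. In that array the median of 6 T cell identity genes was -0.14, against 0.57 and 0.40 in the other R397W arrays. For the comparisons of R397W cells that it moved most, values without it are given as well. The array stood out in the values of these same 7 genes. Fits without it therefore show its weight and are not separate support for a call.

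**Figure D1:**
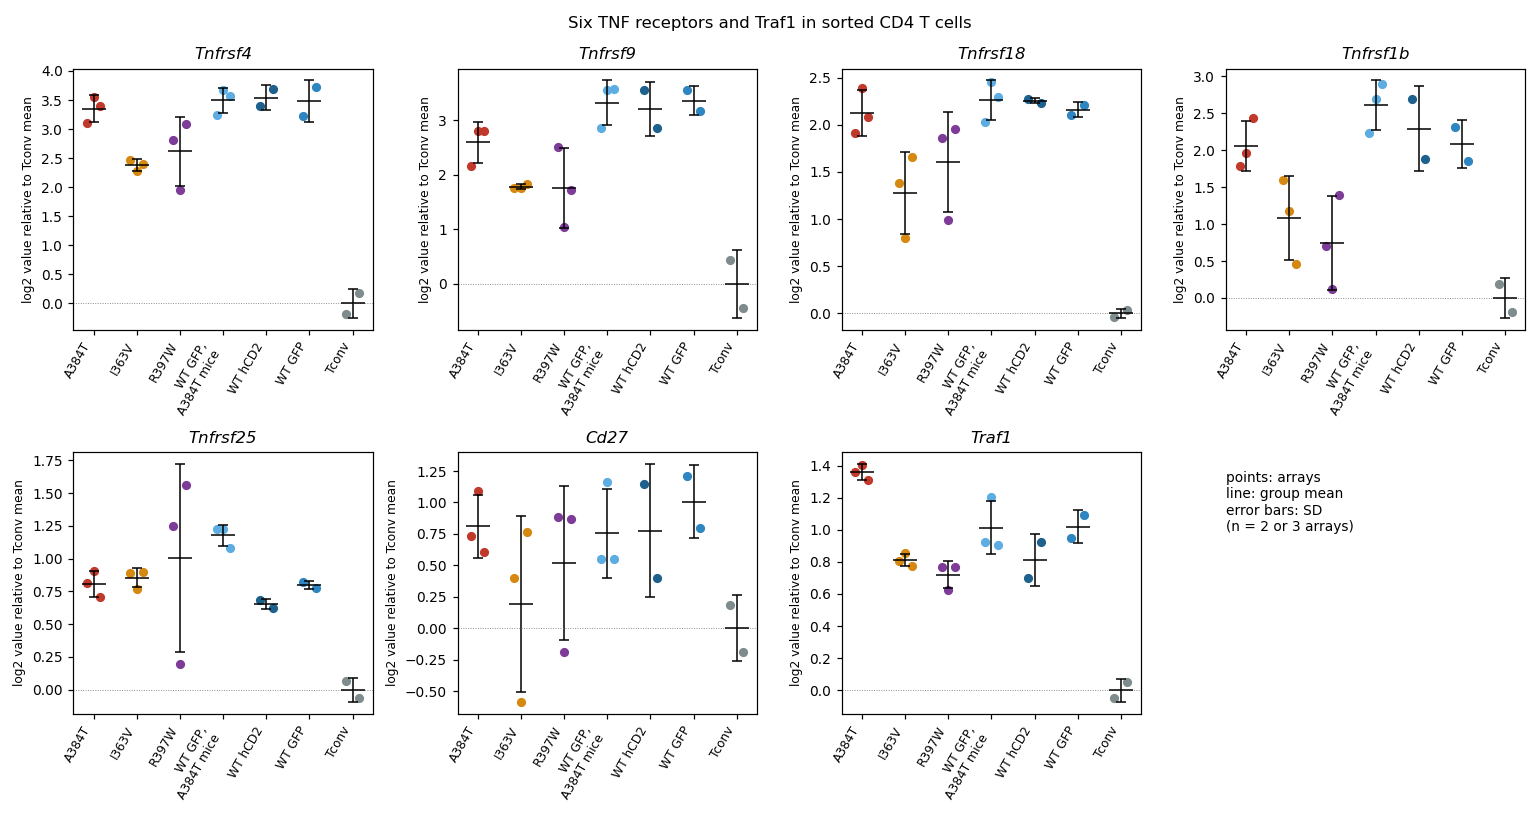
Log2 value relative to the Tconv mean (vertical axis) for each of the 7 genes by group. Points are arrays, horizontal marks are group means and error bars are SD (n = 2 or 3). Tnfrsf4, Tnfrsf9, Tnfrsf18 and Tnfrsf1b were lower in every I363V and R397W array than in both WT hCD2 arrays, and Traf1 was highest in the A384T arrays (1.31 to 1.41).

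Wild-type Treg cells were first compared with Tconv cells, taking the mean of WT hCD2 and WT GFP. Of the 7 genes, 5 were higher in Treg cells, against 3.81% of all genes tested, and none was lower. Among markers of other cells, 1 of 8 B cell genes was higher (Cd79b, 2.21 ± 0.26), 2 of 6 dendritic cell genes (Itgax, -1.16 ± 0.25, and Flt3, -0.51 ± 0.14) and 2 of 6 CD8 T and NK genes (Prf1, -1.99 ± 0.25, and Eomes, -1.25 ± 0.20) were lower, and 0 of 9 myeloid genes were called, with 1 higher and 1 lower at an unadjusted p under 0.05 in limma. Their part in the receptor values was not tested. Tnfrsf4, the OX40 receptor that binds OX40L on antigen-presenting cells, was 11.4-fold higher (log2 difference 3.51 ± 0.26, SE, adjusted p = 6.64e-07). It read 3.39 and 3.70 in WT hCD2 arrays and 3.22 and 3.73 in WT GFP arrays, against -0.17 and 0.17 in Tconv arrays. Tnfrsf9, whose product 4-1BB is induced on activated T cells, was 9.72-fold higher (3.28 ± 0.36, adjusted p = 3.35e-05). It read 3.55 and 2.85 in WT hCD2 arrays and 3.55 and 3.17 in WT GFP arrays, against 0.44 and -0.44 in Tconv arrays. These receptors had the 20th and 25th largest increases among all 18193 genes.

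Tnfrsf18, which encodes GITR, was 4.62-fold higher (2.21 ± 0.26, adjusted p = 5.82e-05), and Tnfrsf1b, which encodes the TNF receptor TNFR2, was 4.56-fold higher (2.19 ± 0.36, adjusted p = 0.00149). Traf1 was 1.89-fold higher (0.92 ± 0.11, adjusted p = 5.75e-05). Its arrays were close together, at 0.70 and 0.93 in WT hCD2 and 0.95 and 1.09 in WT GFP, against -0.05 and 0.05 in Tconv. Tnfrsf25, whose product DR3 binds TL1A, differed by 0.73 ± 0.25 (adjusted p = 0.128) and Cd27, the receptor for CD70, by 0.89 ± 0.37 (adjusted p = 0.246), and neither was called. In all 7 genes each wild-type Treg array lay above both Tconv arrays, which held for 13.3% of all genes. The median difference was 2.19 over the 7 genes and -0.01 over all genes. Equally numbered arrays of WT GFP and Tconv deviated together from their group means (correlation 0.711 across genes), as did WT GFP 1 and WT hCD2 3 (0.771), which the SE does not take into account.

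The other genes of the pathway were counted list by list. Of 20 other TNF receptors measured, 1 was higher in wild-type Treg than in Tconv cells and 0 were lower. It was Tnfrsf13b, which encodes the BAFF and APRIL receptor TACI (0.99 ± 0.25, adjusted p = 0.0304). Of 13 TNF family ligands, 4 were higher and 1 was lower. Among the called ligands Lta, which encodes lymphotoxin alpha (1.74 ± 0.39), Tnfsf11, which encodes RANKL (1.63 ± 0.26), and Tnfsf10, which encodes TRAIL (0.95 ± 0.15), had the largest increases. Fasl, the ligand of the death receptor Fas, was lower (-1.37 ± 0.28, adjusted p = 0.00763). Of 14 TRAFs and receptor adaptors 0 were called in either direction by limma, and 3 higher and 1 lower had an unadjusted p under 0.05, which 8.49% of all genes higher and 6.87% lower had. Of 16 NF-kB subunits and inhibitors 2 were higher, Nfkb2, the p100 precursor (1.07 ± 0.24), and the inhibitor Nfkbie (0.62 ± 0.17). The list medians were -0.06 for other receptors, 0.37 for ligands, 0.22 for TRAFs and adaptors and 0.54 for NF-kB genes, against -0.01 over all genes. Of the measured ligands of the 6 receptors, named here after their values were seen, Tnfsf9 (for 4-1BB) was called (0.50 ± 0.13, adjusted p = 0.0341), as was Lta, given above, whose product also binds TNFR2. Tnf (for TNFR2) differed by 0.37 ± 0.13, Tnfsf4 (for OX40) by 0.07 ± 0.13 and Cd70 (for CD27) by 0.01 ± 0.16.

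The mutant cells were then compared with WT hCD2 Treg cells, which carry the same reporter on an unchanged Foxp3. The 3 comparisons share the 2 WT hCD2 arrays, so a deviation of those arrays enters each of them. No member was called in any of the 3 comparisons. Of all genes, the shares called were 0.28% in A384T, 0.912% in I363V and 2.26% in R397W cells. At an unadjusted p under 0.05, 1 gene was higher in A384T cells (Traf1), and 4 were lower in I363V and 4 in R397W cells (Tnfrsf4, Tnfrsf9, Tnfrsf18 and Tnfrsf1b in both). Of all genes, 3.51% were higher in A384T, 5.15% lower in I363V and 6.9% lower in R397W cells at that threshold. Without array R397W 2, 3 were lower in R397W cells at that threshold (6.3% of all genes), without Tnfrsf18, and 1, Tnfrsf25, was called higher (0.731% of all genes). In I363V cells these 4 receptors had every array below both WT hCD2 arrays, which held for 13.6% of all genes, and in R397W cells the same 4 did, which held for 13% of all genes. In A384T cells 1 gene, Tnfrsf9, had every array below WT hCD2 (14.9% of all genes) and 2, Tnfrsf25 and Traf1, had every array above (10.8% of all genes). The median difference over the 7 genes was -0.13 in A384T, -0.97 in I363V and -0.65 in R397W cells, and over all genes -0.02 in each. Single arrays moved these medians: the R397W median was -0.35 without R397W 2, and the A384T median was 0.18 without WT hCD2 3 and -0.02 without A384T 1. Of the 5 Treg identity genes, 0 were called lower in A384T, 1 in I363V and 3 in R397W cells, and their part in the receptor values was not tested.

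Tnfrsf4 read 3.11, 3.55 and 3.40 in A384T arrays, 2.48, 2.28 and 2.39 in I363V arrays and 2.82, 1.94 and 3.08 in R397W arrays, against 3.39 and 3.70 in WT hCD2 arrays. The A384T arrays overlapped WT hCD2, while the I363V and R397W arrays lay below it. The difference was -0.19 ± 0.27 (adjusted p = 0.902, 95% interval -0.77 to 0.39) in A384T, -1.16 ± 0.27 (adjusted p = 0.0659) in I363V and -0.93 ± 0.27 (adjusted p = 0.115) in R397W cells, and -0.59 ± 0.21 (adjusted p = 0.221) in R397W cells without R397W 2. It read 3.24, 3.67 and 3.57 in WT GFP cells of A384T mice. By mean, I363V was the lowest Treg group, followed by R397W, with overlapping arrays, and then by A384T and the 3 wild-type groups, which all overlapped each other.

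Tnfrsf9 read 2.16, 2.81 and 2.81 in A384T arrays, 1.76, 1.75 and 1.83 in I363V arrays and 2.52, 1.05 and 1.71 in R397W arrays, against 3.55 and 2.85 in WT hCD2 arrays. Every array of the 3 mutants was below both WT hCD2 arrays. It read 2.85, 3.55 and 3.57 in WT GFP cells of A384T mice, so that the A384T arrays lay below all 7 wild-type Treg arrays. I363V lay below A384T, and R397W overlapped both. The A384T difference was -0.61 ± 0.38 (adjusted p = 0.721), the I363V difference -1.42 ± 0.38 (adjusted p = 0.126) and the R397W difference -1.44 ± 0.38 (adjusted p = 0.0699), or -1.09 ± 0.36 without R397W 2 (adjusted p = 0.18). A second probe set of Tnfrsf9 differed by -0.97 ± 0.22 in I363V cells (adjusted p = 0.0744) and by -1.20 ± 0.22 in R397W cells (adjusted p = 0.0131, called), where each of the 11 probe sets was tested with p adjusted over all probe sets assigned to 1 gene. The remaining probe set of Tnfrsf9 stayed between -0.15 and 0.14 in all arrays, Tconv included, and was called in no comparison.

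Tnfrsf18 read 1.91, 2.40 and 2.08 in A384T arrays, 1.38, 0.81 and 1.66 in I363V arrays and 1.86, 0.99 and 1.96 in R397W arrays, against 2.28 and 2.23 in WT hCD2 arrays. A384T arrays lay on both sides of the WT hCD2 values, and the others below them. WT GFP cells of A384T mice read 2.03, 2.45 and 2.29 and overlapped A384T, while I363V and R397W overlapped each other. The differences were -0.13 ± 0.27 in A384T (adjusted p = 0.937), -0.97 ± 0.27 in I363V (adjusted p = 0.146) and -0.65 ± 0.27 in R397W cells (adjusted p = 0.335). Without R397W 2 the R397W difference was -0.35 ± 0.23 (adjusted p = 0.631).

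Tnfrsf1b read 1.79, 1.96 and 2.44 in A384T arrays, 1.60, 1.18 and 0.47 in I363V arrays and 0.71, 0.12 and 1.39 in R397W arrays, against 2.70 and 1.89 in WT hCD2 arrays. The A384T arrays overlapped WT hCD2, and R397W cells came nearest to Tconv, with array R397W 2 inside the Tconv range. WT GFP cells of A384T mice had the highest mean (2.24, 2.70 and 2.89), overlapping A384T and both other wild-type groups, and I363V overlapped R397W but not A384T. The R397W difference was -1.55 ± 0.38 (adjusted p = 0.0509), or -1.24 ± 0.38 without R397W 2 (adjusted p = 0.14), the I363V difference -1.21 ± 0.38 (adjusted p = 0.237) and the A384T difference -0.23 ± 0.38 (adjusted p = 0.917). TNFR2 is also known on myeloid cells. The median of 9 myeloid markers, all measured, lay between -1.60 and -0.89 in R397W arrays, between -0.31 and 0.01 in I363V arrays and between -0.77 and 0.03 in A384T arrays, against 0.07 to 0.20 in WT hCD2 arrays, and its part in the Tnfrsf1b values was not tested. With centred values it cannot be said which of these markers were near background. The second probe set of Tnfrsf1b moved less, by 0.35 ± 0.18 between wild-type Treg and Tconv cells (adjusted p = 0.389) and by -0.37 ± 0.18 between R397W and WT hCD2 cells (adjusted p = 0.506).

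In no mutant did all arrays of Tnfrsf25 or Cd27 lie below WT hCD2. Tnfrsf25 read 0.81, 0.91 and 0.71 in A384T arrays, 0.89, 0.77 and 0.90 in I363V arrays and 1.25, 0.20 and 1.56 in R397W arrays, against 0.68 and 0.63 in WT hCD2 arrays. All A384T and I363V arrays lay above WT hCD2 (10.3% of all genes for I363V), and the R397W arrays lay on both sides. Without array R397W 2 the R397W difference from WT hCD2 was 0.75 ± 0.12 (adjusted p = 0.00573), against 0.35 ± 0.26 with it (adjusted p = 0.722). Cd27 averaged 0.81 ± 0.25 in A384T, 0.19 ± 0.70 in I363V and 0.52 ± 0.61 in R397W cells, against 0.78 ± 0.53 in WT hCD2 cells (SD, n = 3, 3, 3 and 2). Array I363V 2 (-0.58) and array R397W 2 (-0.19) lay below both Tconv arrays, and no comparison of Cd27 was called. Each mutant overlapped WT hCD2 and the WT GFP cells of A384T mice (0.55, 1.16 and 0.55) in Cd27.

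Traf1 read 1.36, 1.41 and 1.31 in A384T arrays, 0.81, 0.85 and 0.78 in I363V arrays and 0.77, 0.63 and 0.77 in R397W arrays, against 0.70 and 0.93 in WT hCD2 arrays. It had the smallest SE of the 7 genes, and all A384T arrays lay above all other arrays of the study on this probe set. WT GFP cells of A384T mice, at 0.93, 1.20 and 0.91, came next and overlapped both other wild-type groups. The A384T difference from WT hCD2 was 0.55 ± 0.11 (adjusted p = 0.0689, 95% interval 0.31 to 0.79). The I363V and WT hCD2 means were both 0.81, and the R397W difference was -0.09 ± 0.11 (adjusted p = 0.868). On the second Traf1 probe set array A384T 2 read 0.93, below 2 arrays of WT GFP cells of A384T mice (1.16 and 1.12), WT hCD2 4 (0.97), R397W 3 (0.95) and WT GFP 2 (0.94), and the A384T difference from WT hCD2 was 0.41 ± 0.16 (adjusted p = 0.55 over all probe sets).

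**Figure D2:**
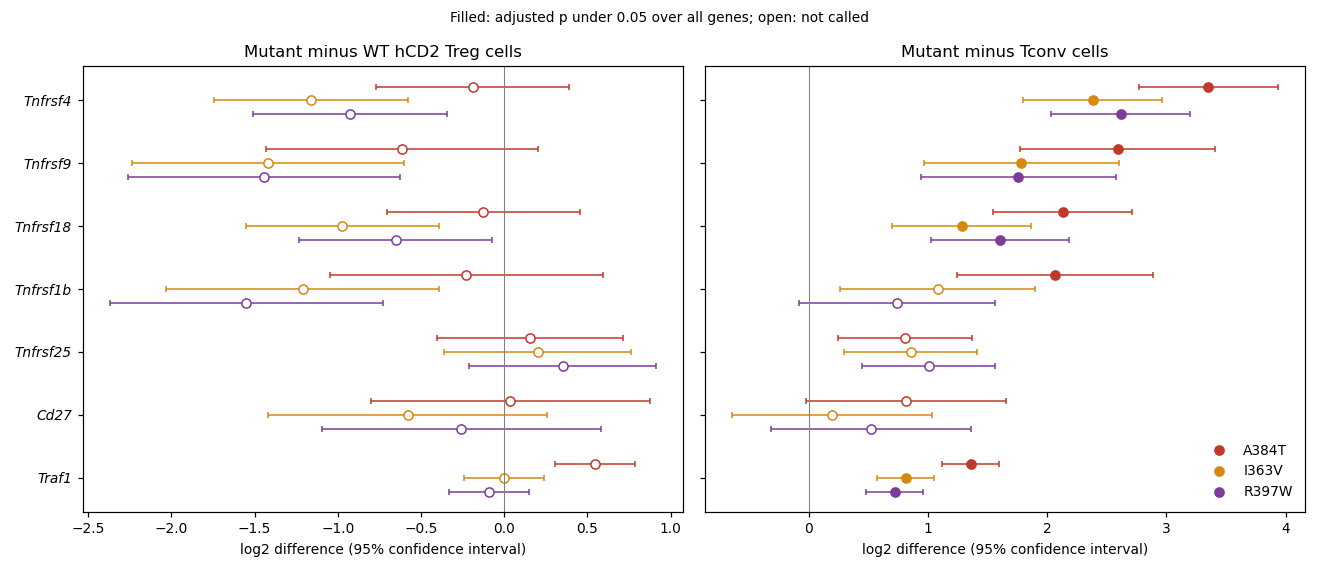
Log2 differences (horizontal axis) of A384T, I363V and R397W Treg cells from WT hCD2 Treg cells (left) and from Tconv cells (right), with 95% confidence intervals from the limma fit over all genes. Filled points passed an adjusted p of 0.05. None passed against WT hCD2, while Tnfrsf4, Tnfrsf9, Tnfrsf18 and Traf1 passed against Tconv in all 3 mutants and Tnfrsf1b in A384T cells.

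Each mutant was also set against Tconv cells. In A384T cells 5 of 7 genes were higher than in Tconv cells (4.14% of all genes), in I363V cells 4 (1.48%) and in R397W cells 4 (1.06%). These comparisons share the 2 Tconv arrays. Tnfrsf4 was 10.2-fold higher than in Tconv in A384T, 5.21-fold in I363V and 6.13-fold in R397W cells. Tnfrsf9 was 6.02-fold, 3.44-fold and 3.38-fold higher in A384T, I363V and R397W cells, and Tnfrsf18 4.37-fold, 2.43-fold and 3.04-fold higher in the same order. Traf1 was 2.56-fold, 1.76-fold and 1.65-fold higher. Tnfrsf1b was called in A384T cells (2.06 ± 0.38, adjusted p = 0.00346), and not in I363V (1.08 ± 0.38, adjusted p = 0.215) or R397W cells (0.74 ± 0.38, adjusted p = 0.539). In fits of 2 groups alone, the count for R397W cells was 0, while the genes called higher among all genes fell from 192 to 43. In I363V cells Tnfrsf9 (adjusted p = 0.0591) and Tnfrsf18 (0.138) were lost, with a fall from 270 to 97 among all genes. Tnfrsf25 was gained in A384T (0.81 ± 0.13, adjusted p = 0.0156) and I363V cells (0.85 ± 0.12, adjusted p = 0.0498). Without R397W 2, Tnfrsf25 was also called in R397W cells (1.41 ± 0.12, adjusted p = 1.64e-05), which it was not with that array. Of the 7 genes, Tnfrsf25 was the furthest below its group mean in R397W 2 (-0.81), so this call depends on leaving that array out. Among all genes 389 were higher in that fit. Leaving out 1 array also ended calls of Tnfrsf9 and Tnfrsf18 in I363V cells, of Tnfrsf9 in R397W cells and, without Tconv 2, of Tnfrsf1b in A384T cells (adjusted p = 0.0621).

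Whether a mutant differs from another mutant was tested directly. Between A384T and I363V cells 1 of 7 genes was called higher, against 0.885% of all genes, and between A384T and R397W cells 1, against 2.22%, and both calls were Traf1. Its difference was 0.55 ± 0.10 from I363V (adjusted p = 0.0128) and 0.64 ± 0.10 from R397W (adjusted p = 0.00234). The call against I363V was lost in 4 of the 6 fits that left out 1 array, without A384T 1, A384T 2, I363V 1 or I363V 3 (adjusted p 0.0538 to 0.0719). In a fit of A384T and I363V arrays alone Traf1 had an adjusted p of 0.0545 and Tnfrsf4 was called instead (0.028). The second Traf1 probe set differed by 0.56 ± 0.15 from I363V (adjusted p = 0.125) and by 0.44 ± 0.15 from R397W (adjusted p = 0.159), and neither was called. Tnfrsf9, not called on its main probe set, was called on the second probe set between A384T and R397W cells (0.85 ± 0.20, adjusted p = 0.0394 over all probe sets), with every A384T array above every R397W array. In 5 genes every A384T array lay above every I363V array (Tnfrsf4, Tnfrsf9, Tnfrsf18, Tnfrsf1b and Traf1), which held for 7.87% of all genes. The differences of the first 4 were 0.97 ± 0.24, 0.81 ± 0.34, 0.85 ± 0.24 and 0.98 ± 0.34, none called (adjusted p 0.0853 to 0.492). Between A384T and R397W cells, 3 genes (Tnfrsf4, Tnfrsf1b and Traf1) had no overlap, with A384T above, which held for 10.7% of all genes. Tnfrsf1b differed by 1.32 ± 0.34 (adjusted p = 0.0524), beside the myeloid marker values given above. Of the 5 Treg identity genes 4 were higher in A384T than in R397W cells, Il2ra by 1.71 ± 0.16, Nrp1 by 1.58 ± 0.24, Ctla4 by 1.01 ± 0.22 and Foxp3 by 0.70 ± 0.17 (adjusted p = 0.0432). The T cell gene Cd3e (0.77 ± 0.18) and the myeloid gene Lyz2 (1.34 ± 0.31) were higher too, and the B cell gene Ms4a1 was lower (-1.59 ± 0.27), and the part of these genes in the receptor differences was not tested. Without R397W 2, 2 of the 5 Treg identity genes were called higher, and 1 of 8 B cell genes was lower. Of 6 T cell identity and 9 myeloid genes 0 were called in that fit, so the calls of Cd3e and Lyz2 were lost. Traf1 stayed called (0.59 ± 0.11, adjusted p = 0.0137), and Tnfrsf25 was lower in A384T cells (-0.60 ± 0.11, adjusted p = 0.0122). Tnfrsf4 differed by 0.40 ± 0.19 and Tnfrsf1b by 1.01 ± 0.35. Between I363V and R397W cells 0 genes were called by limma, 0 had an unadjusted p under 0.05, and 0.0824% of all genes were called. Without R397W 2, 0 were called, against 30 genes higher and 27 lower among all genes tested. At an unadjusted p under 0.05 in limma 3 (Tnfrsf4, Tnfrsf18 and Tnfrsf25) were lower in I363V cells, with Tnfrsf25 at -0.55 ± 0.11 (adjusted p = 0.0586). The share of all genes lower at that threshold is not given here.

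Wild-type GFP Treg cells of A384T mice gave A384T cells a comparison from the same hosts. The mutant allele was tagged by hCD2 and the wild-type allele by GFP, so mutation and reporter cannot be told apart in it. Arrays of these groups with equal numbers deviated together (correlations 0.576 to 0.686 across genes), so the number was used as a block. With it, in a fit of these groups alone (2 residual degrees of freedom), 4 of 7 genes were called, 1 higher and 3 lower. Of all genes, 1.81% were called higher and 3.42% lower. The SEs of the 7 genes were alike (0.0757 to 0.0882) and draw largely on the spread pooled over all genes. In the fit of all arrays without the block 0 of 7 were called, against 0.522% in either direction. Tnfrsf9 was lower in A384T cells, with differences of -0.70, -0.74 and -0.76 at numbers 1, 2 and 3 (blocked difference -0.73 ± 0.08, adjusted p = 0.000776). Tnfrsf1b was lower too, with -0.45, -0.74 and -0.45 (-0.55 ± 0.09, adjusted p = 0.00824), as was Tnfrsf25, with -0.41, -0.32 and -0.38 (-0.37 ± 0.08, adjusted p = 0.0262). Traf1 was higher by 0.44, 0.20 and 0.40 (0.35 ± 0.08, adjusted p = 0.0493). The 3 pairs had the same direction in each of these genes, and also in Tnfrsf4, Tnfrsf18 and Foxp3, which were not called. The share of all genes with 1 direction was not counted. By mean, A384T cells (2.06 in Tnfrsf1b, 0.81 in Tnfrsf25) were near WT GFP cells of wild-type mice (2.08 and 0.80). WT GFP cells of A384T mice averaged 2.61 and 1.18, and WT hCD2 cells 2.29 and 0.65. Fitted over all probe sets with the block, the second probe sets were not called. That of Tnfrsf9 gave -0.30, -0.20 and -0.28 (-0.26 ± 0.07, adjusted p = 0.108), that of Tnfrsf1b -0.21, 0.01 and -0.19 (-0.13 ± 0.08, adjusted p = 0.497) and that of Traf1 0.24, 0.08 and 0.29 (0.20 ± 0.08, adjusted p = 0.243), and the first Traf1 probe set had an adjusted p of 0.0514 over all probe sets. In the fit by gene 3 of 9 myeloid markers were lower, among them Lyz2 (-0.50 ± 0.10). Of the 5 Treg identity genes, Nrp1 (-0.65 ± 0.08) and Ikzf2 (-0.37 ± 0.08) were lower and Il2ra was higher (0.65 ± 0.08), and 1 of 6 CD8 T and NK markers, Prf1, was higher (0.42 ± 0.08). The part of these markers in the 4 calls was not tested.

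Tnfrsf4 differed by -0.14 ± 0.08 (adjusted p = 0.413, 95% interval -0.31 to 0.03), Tnfrsf18 by -0.13 ± 0.08 (adjusted p = 0.473, interval -0.31 to 0.05) and Cd27 by 0.06 ± 0.08 (adjusted p = 0.811). The intervals of Tnfrsf4 and Tnfrsf18 did not reach the difference of -0.73 on the main Tnfrsf9 probe set. Both held the difference of -0.26 on its second probe set. Fits that left out 1 number, both of its arrays, kept 2 arrays per group. Their SEs rest mostly on the spread pooled over genes, with 0.1053 to 0.1058 for the 7 genes without number 2. The share of all genes called in them was not counted. Tnfrsf9 was called in all 3 of these fits. Tnfrsf1b was not called without number 3 (adjusted p = 0.0505). Tnfrsf25 and Traf1 were called only without number 2, and not without number 1 (adjusted p = 0.175 and 0.294) or number 3 (0.136 and 0.22). Between WT GFP cells of A384T mice and those of wild-type mice limma called 0 of 7 genes and 0% of all genes, and 0 of 7 had an unadjusted p under 0.05, with Tnfrsf25 at 1.18 ± 0.08 and 0.80 ± 0.03 (SD, n = 3 and 2).

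**Figure D3:**
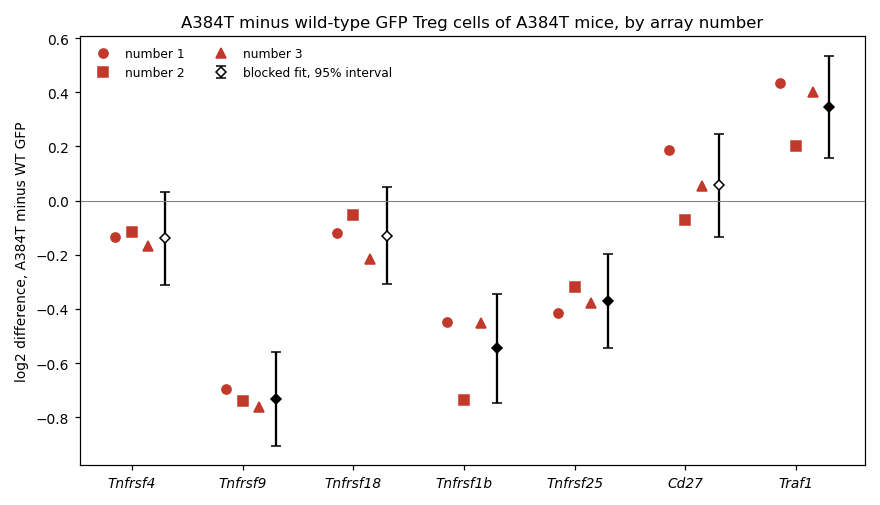
Log2 difference of A384T cells from wild-type GFP Treg cells of A384T mice (vertical axis), for arrays of equal number (points) and in the limma fit with number as a block (diamonds, 95% interval, filled where the adjusted p was under 0.05). Tnfrsf9 lay at -0.70, -0.74 and -0.76, and Traf1 between 0.20 and 0.44.

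Whether the difference within A384T mice departs from the reporter difference in wild-type mice was tested as an interaction, in which 0 of 7 genes were called (0.0495% of all genes). Traf1 had an interaction of 0.55 ± 0.16 (unadjusted p = 0.00358, adjusted p = 0.678), and it was the only one of the 7 with an unadjusted p under 0.05 in limma. For the genes called lower within A384T mice, the interaction was -0.58 ± 0.54 (Tnfrsf9), -0.75 ± 0.54 (Tnfrsf1b) and -0.23 ± 0.37 (Tnfrsf25). That fit has no block. With the numbers of A384T mice as a block, 0 of 7 were called in the fit of all arrays and 0 in that of the 4 groups alone, and Traf1 had an adjusted p of 0.574 and 0.558. Between WT hCD2 and WT GFP cells of wild-type mice limma called 0 of 7 genes and 0% of all genes, and 0 of 7 had an unadjusted p under 0.05.

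Of the pathway lists, few genes were called between mutant and wild-type Treg cells. In R397W cells 1 of 13 ligands was lower than in WT hCD2 cells, Tnfsf10 (-0.96 ± 0.15, adjusted p = 0.00376). In A384T and I363V cells 0 of the 20 other receptors, 13 ligands, 14 TRAFs and adaptors and 16 NF-kB genes were called by limma against WT hCD2. At an unadjusted p under 0.05 there were 8 in A384T and 7 in I363V cells, against 8.07% and 8.94% of all genes. Within A384T mice, with the block, 3 ligands were lower, Tnfsf10 (-0.78 ± 0.09), Tnfsf14, which encodes LIGHT (-0.76 ± 0.09), and Fasl (-0.46 ± 0.08), and Lta was higher (0.73 ± 0.08). Without the block Tnfsf10 alone was called. Between A384T and R397W cells Fasl was lower (-1.30 ± 0.27), while Tnf (0.58 ± 0.12), Nfkb2 (0.94 ± 0.23) and Nfkbie (0.65 ± 0.16) were higher. None of these calls held without array R397W 2, where 0 of 13 ligands and 0 of 16 NF-kB genes were called. Among all genes 278 were higher and 144 lower in that fit. Between A384T and I363V cells Fasl was lower (-1.18 ± 0.27, adjusted p = 0.0473).

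The arrays also show how alike the genes ran. Over 18 arrays the receptors Tnfrsf4 and Tnfrsf18 had a Pearson correlation of 0.97, Tnfrsf9 and Tnfrsf18 of 0.917 and Tnfrsf4 and Tnfrsf9 of 0.905, whereas Cd27 and Traf1 had 0.505. These arrays share the contrast between Treg and Tconv cells, which raises every such value. Among all other genes, Tnfrsf4 ran most like Capg, an actin-capping protein (0.978 over 18 arrays, 0.993 over 7 group means), and Samsn1 (0.974 and 0.993). Tnfrsf18 ran most like Capg (0.97 and 0.988) and Pdcd1, which encodes the inhibitory receptor PD-1 (0.966 and 0.994). Tnfrsf9 ran most like Syt11, a synaptotagmin (0.975 and 0.986), and Pdcd1 (0.942 and 0.983). For Tnfrsf1b these were Tspan3, a tetraspanin (0.954 and 0.96), and Ncf4, a subunit of the phagocyte oxidase (0.952 and 0.985). Tnfrsf25 was nearest to Spsb3 (0.9 and 0.985) and Sigirr (0.897 and 0.92), and Cd27 to Josd2 (0.949 and 0.972) and Cluap1 (0.942 and 0.921). Traf1 was nearest to Socs2, a cytokine signalling inhibitor (0.951 and 0.975), and Mxd1, a MAX-binding repressor (0.939 and 0.967).

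**Figure D4:**
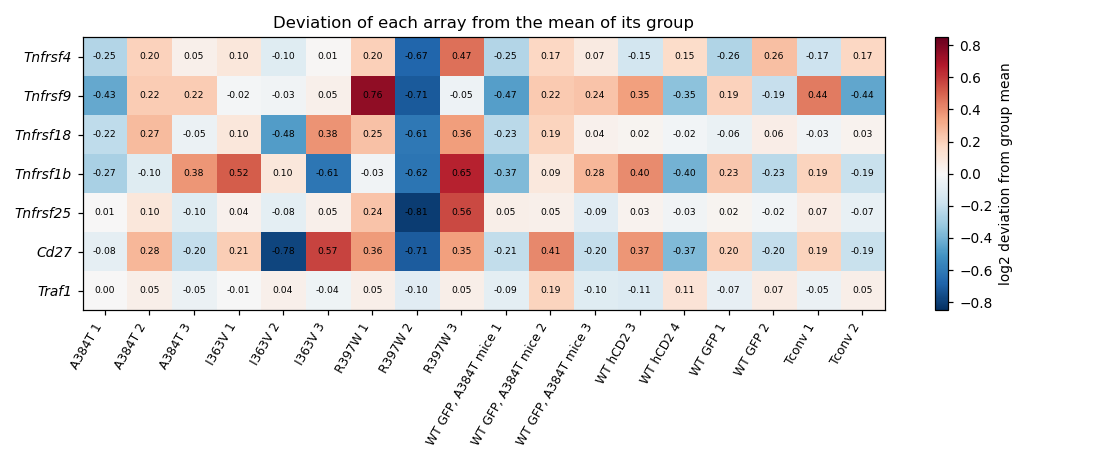
Deviation of each array (columns) from the mean of its group for each gene (rows), in log2 units shown by colour and number. Array R397W 2 is below its group mean in all 7 genes, by 0.10 for Traf1 and 0.81 for Tnfrsf25, and arrays of equal number in A384T and WT GFP cells of A384T mice often share a sign.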

How the data were processed

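Biotin-labelled RNA of 18 samples in 7 groups was measured on Affymetrix arrays of 45101 probe sets. The deposited log2 values come from RMA, per the submitters' processing notes. Its software and version are not given in the sources used here, and the log base is that of RMA's convention. In the deposited values the 2 Tconv arrays sum to at most 1.0e-06 at every probe set, so levels are lost and differences kept. GEO's annotation gave 34945 probe sets 1 gene, 932 several and 9211 none, and 13 control probe sets were set aside. Each of the 18193 genes was represented by its most variable probe set, with no other filter or normalization.

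Group means of all 18 arrays were fitted with limma 3.58.1 in R 4.3.3 (11 residual degrees of freedom), with two-sided moderated tests and Benjamini-Hochberg adjustment over all genes. The blocked fit of A384T against WT GFP cells of A384T mice used only those groups (2 residual degrees of freedom). The script was tested on simulated data. Tables and plots used Python 3.11.15, pandas 2.3.3, numpy 2.4.6 and matplotlib 3.10.9. The alternatives were the mean of a gene's probe sets, subtraction of array medians, only the groups compared, robust eBayes, leaving out 1 in 3 genes with the least variance, a replicate block and leaving out each array. Separate fits of all probe sets, with and without the block, blocked fits without 1 number, blocked fits of the interaction and of WT GFP against Tconv, and marker counts without array R397W 2 were added after seeing the data. The labels do not say what equal numbers mark. In A384T and WT GFP cells of A384T mice, arrays of equal number deviated together from their group means (correlations 0.576 to 0.686 across genes). Unequal numbers gave -0.455 to -0.164, which centring on group means itself pushes towards negative values. These samples were therefore treated as paired, which no label states. No other groups passed this check. It needed 3 shared numbers, so comparisons with Tconv or WT GFP could not pass it. The genes named are all 7 members with every probe set, Foxp3, called genes of 4 pathway lists (at most 3 per direction, with Tnfsf4, Tnfsf9, Tnf and Cd70 added as ligands of members after their values were seen) and the 2 genes that correlate most with each member. The members and lists were chosen with earlier results of these data known.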

Additional observations from a re-analysis of the deposited data

How the results depend on the processing

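The count of 5 genes higher in wild-type Treg than in Tconv cells held in the fits without 1 array (5 to 5) and in all other fits except that of only the groups compared, which added Tnfrsf25 (adjusted p = 0.0221). No called member changed sign except Tnfrsf9 on its unresponsive probe set, which gave -0.0482 for wild-type Treg cells, -0.0278 for A384T and -0.01 for I363V cells against Tconv. Against WT hCD2 the count of 0 became 1 in A384T cells (Traf1) with array medians subtracted. In I363V cells it became 1 (Tnfrsf4) with the mean of probe sets and 1 with the least variable genes left out. In R397W cells it became 1 (Tnfrsf9) with the mean of probe sets, 1 (Tnfrsf1b) with medians subtracted, 2 (Tnfrsf9 and Tnfrsf1b) without the least variable genes, and 0 to 2 without 1 array. Those called were Tnfrsf9 without R397W 1, Tnfrsf25 without R397W 2, and Tnfrsf4 and Tnfrsf1b without R397W 3.

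With the replicate block the count within A384T mice was 4 in place of 0, and 0 to 4 over all fits that left out an array or a number. For the other groups the numbers were not shown to pair samples. The block on them gave 1 for I363V and 0 for R397W against Tconv (4 each without it). Among all genes, those called higher fell from 270 to 42 and from 192 to 29. The block ended the Tnfrsf9 call of A384T against Tconv (adjusted p = 0.0507), which left 4 in place of 5. There 291 genes were higher among all, in place of 753. The block gave 0 for A384T against I363V and 0 against R397W (1 each without it). Among all genes, those called higher fell from 161 to 23 and from 404 to 42. WT GFP and Tconv share 2 numbers, too few to show pairing. A fit of these groups, added after seeing the data, called 7 with the block (Tnfrsf25 and Cd27 among them), 4 without it and 5 with all arrays. The shares of all genes called in the fits of WT GFP against Tconv were not counted, so their counts are not a result about the 7 genes. The interaction gave 0 with the A384T numbers as a block. No paired analysis was possible because no number is shared for the mutants against WT hCD2. Against Tconv the fit of only the groups compared gave 0 for R397W cells, with 43 genes higher among all genes. Fits without 1 array gave 4 to 5 for A384T, 2 to 3 for I363V and 3 to 5 for R397W. Among all genes, 396 to 635, 132 to 284 and 121 to 389 were higher in those fits, in the same order. The lower counts for I363V (2) came without Tconv 2, I363V 1 or I363V 3, each time without Tnfrsf9 and Tnfrsf18. A384T against I363V gave 0 to 1 without 1 array. A384T against R397W gave 2 (Tnfrsf1b added) with medians subtracted, 2 without the least variable genes, and 1 to 3 without 1 array. Apart from the settings named, the cause of these changes was not tested. Calls near the threshold rest on 2 or 3 arrays per group, and signal over background is not known from centred values.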
